A study of Mus musculus with 6 samples.

Results

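Leukaemia cells from mice fasted for 1 day were compared, gene by gene, with leukaemia cells from normally fed mice. The members are the 4 RNA-seq libraries titled as 1-day fasting or as control, of 6 libraries in the series, and all genes that could be matched between the gene tables behind them. Of 37732 matched genes, 14236 passed a filter on low counts and were tested. The leukaemia is a mouse model of B-cell acute lymphoblastic leukaemia (B-ALL). C57BL/6 mice received lineage-negative (Lin-) fetal liver cells expressing N-Myc and a GFP reporter, so the disease was started by 1 oncogene in transplanted progenitors. When about 60% of blood cells were GFP+, mice were fasted. Cells that were GFP+ and B220+, the CD45 form carried by B-lineage cells, were sorted from bone marrow. The 1-day group has 2 libraries from fasted mice and the control group has 2 libraries from fed mice, and both groups carry the same N-Myc and GFP cells. The labels do not give the number, age or sex of the mice behind a library.

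B-ALL cells are lymphocyte precursors held at an early stage, at which they would normally rearrange immunoglobulin genes and then mature into follicular B cells. Fasting lowers insulin and leptin, raises glucocorticoid hormones and limits circulating amino acids and glucose, and lymphoid cells carry receptors or sensors for each of these signals. Glucocorticoids kill many B-cell precursors through the balance of BCL2-family proteins. Early response genes such as Fos, Egr1 and Nr4a1 are switched on within minutes of a stimulus, including the handling of tissue.

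The labelled replicates of a group agreed within sampling noise for most genes and are called run 1 and run 2. On unique gene reads, the squared difference between runs over its sampling variance had a median of 1.11 in 1-day cells and 1.1 in control cells, where 1 is pure sampling. On total gene reads, which the calls use, it was 1.33 and 1.37, with 3.94% of genes in 1-day cells and 4.23% in control cells more than 3 SD apart. Between the groups the unique-read median was 5.99 (run 1) and 8.01 (run 2). Each group was therefore counted as 1 sample, no p-value is given, and no difference has a replicate check. Fasting and any other difference between the animals behind the groups cannot be told apart. Total gene reads were 28805008 and 45862844 in the 1-day runs and 23412288 and 43785874 in the control runs. Intron reads made up 11.7% and 11.3% of gene reads at 1 day and 11.2% and 10.7% in control. Levels are CPM, which are gene reads scaled to a common library size, and are not corrected for gene length. A gene is called higher or lower at 1 day when the fold of the group means and the fold in each run are at least 2, with 0.1 CPM added before the ratio. Log2 folds are 1-day over control throughout.

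The label fits the sorted cells. All 5 defining B-lineage markers were detected in both groups. None of 11 tested B-lineage identity genes differed by 1.5-fold. Mycn, the oncogene given to the cells, stood at 2107 CPM at 1 day and 2175 CPM in control. Proliferation genes had a median log2 fold of -0.20 over 24 genes, with 0 past 1.5-fold. All 24 had a lower value at 1 day, with log2 folds from -0.56 to -0.05. They summed to 8391 and 8356 CPM in the 1-day runs, against 9796 and 9779 CPM in the control runs. Markers of other cells were present: the 21 tested neutrophil genes summed to 724 and 757 CPM in the 1-day runs, against 1095 and 1115 CPM in the control runs, with 0 higher and 5 lower by a 1.5-fold rule on the same terms, which 4.29% and 2.79% of all genes passed. The 18 erythroid genes summed to 1213 and 1207 CPM at 1 day, against 1097 and 1105 CPM in control, with 0 past the rule. The 15 monocyte and macrophage genes summed to 156 and 153 CPM, against 148 and 140 CPM, with 3 higher and 0 lower. The part of these cells in the results was not tested.

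A day of fasting went with a limited set of differences. Of 14236 genes tested, 213 (1.5%) were at least 2-fold higher in 1-day fasted cells and 111 (0.78%) were at least 2-fold lower, 324 genes (2.28%) in all. Among genes of at least 1 CPM, 91.8% lay within 1.5-fold, and the median log2 fold of all tested genes was 0.002. Larger folds were fewer: 61 genes were at least 3-fold higher and 27 at least 3-fold lower, and 5 and 4 reached 8-fold. The share of genes called was largest at low levels. By the level in the higher group, 2.27% were higher and 1.54% lower below 1 CPM, 3.34% and 2.3% at 1 to 5 CPM, 1.34% and 0.46% at 5 to 50 CPM, and 0.462% and 0.0629% at 50 CPM or more. The 10 higher genes just inside the 2-fold limit had log2 folds of 1.00 to 1.03 and the 10 just outside had 0.99 to 1.00. The counts depend on asking both runs to pass. With the 1-day run 1 left out, 272 were higher and 200 lower, and with the 1-day run 2 left out, 314 and 258. Without control run 1 the counts were 309 and 160, and without control run 2 they were 412 and 224.

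**Figure D1:**
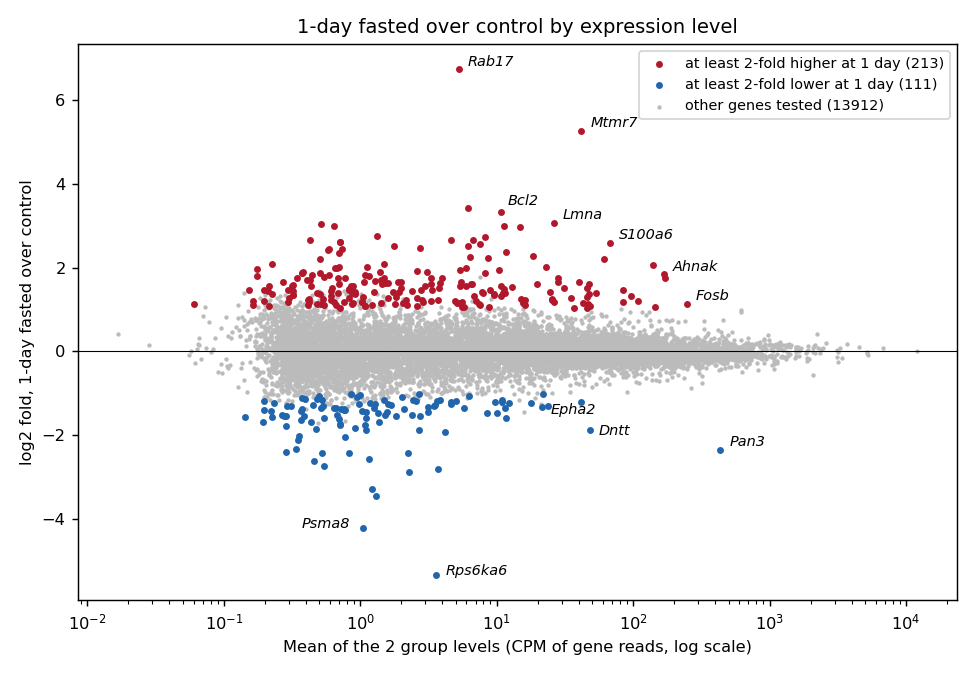
Log2 fold (1-day fasted over control, y axis) against the mean of both group levels (CPM of gene reads, log x axis) for the 14236 genes tested, 1 point a gene. Red points are the 213 genes at least 2-fold higher at 1 day and blue points the 111 at least 2-fold lower. Most called genes lie at low levels, and Pan3 is the called lower gene at the highest level.

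Genes of cell survival and death were among the genes that differed most. Bcl2, the protein that restrains mitochondrial cell death, stood at 19.8 and 19.3 CPM in the 1-day runs, against 1.65 and 2.08 CPM in the control runs. This is a log2 fold of 3.32, resting on 1420 reads at 1 day and 125 in control. Both BH3-only genes that passed, whose products oppose BCL2, were higher too. Bmf had 13.14 and 12.98 CPM in 1-day cells, against 3.08 and 3.91 CPM in control cells (log2 fold 1.87). Pmaip1, also called Noxa, averaged 16.8 CPM at 1 day and 6.33 CPM in control (1.40). The runs of the groups do not overlap for any of these 3 genes. The rule asks for 2-fold in each run, so this adds no support. Of 17 tested BCL2-family genes, 3 passed the 1.5-fold rule as higher and 1 as lower, against 4.29% and 2.79% of all genes tested (7.08% in either direction). The lower one, Bcl2l2, had only 16 reads at 1 day and 30 in control, and on unique reads its log2 fold was -0.21. Mcl1, a second survival gene, averaged 284 CPM at 1 day and 229 CPM in control, and Bcl2l11, the gene of BIM, averaged 79.4 CPM and 69.2 CPM, both within 1.5-fold. Casp1, the caspase that matures interleukin-1 family cytokines, had 12.4 and 13.6 CPM at 1 day, against 2.26 and 1.98 CPM in control (2.56), and it was 1 of 3 higher genes among 23 caspase and inflammasome genes, of which 1 was lower.

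Structural and calcium-binding genes also had large differences. Lmna, the gene of the A-type nuclear lamins, had 45.5 and 48.7 CPM in the 1-day runs, against 5.29 and 5.77 CPM in the control runs (log2 fold 3.07). Syne2, which links the nuclear envelope to actin, differed the other way, with 13.98 and 13.27 CPM at 1 day, against 35.1 and 32.2 CPM in control (-1.30). The other 17 of 19 lamin and nuclear envelope genes did not pass the 1.5-fold rule. S100a6 had 116 CPM in both 1-day runs, against 19.4 and 18.8 CPM in the control runs (2.59). Its chromosome 3 neighbour S100a4 had 14.89 and 13.97 CPM at 1 day, against 1.78 and 2.43 CPM in control (2.72). Both encode small EF-hand proteins that bind calcium. The annexin partner gene S100a10 was 1.65-fold higher, and its partner Anxa2 averaged 35.9 CPM at 1 day and 13.3 CPM in control (1.43). S100a8 and S100a9, calcium-binding proteins of neutrophils, were lower (-0.68 and -0.64), as were the neutrophil markers Ltf (-0.75) and Camp (-0.64). Not all neutrophil genes were lower: of 21 tested, 16 passed the 1.5-fold rule in neither direction. Ctsg averaged 2.98 CPM at 1 day and 1.81 CPM in control, Mpo 19.0 CPM and 17.7 CPM, and Cxcr2 3.74 CPM and 3.50 CPM. The neutrophil sums given above were lower in the same libraries, and their part in the result was not tested. In sorted bulk cells, fewer cells of a type and less RNA per cell cannot be told apart.

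Ahnak, the gene of a very large scaffold protein that binds S100a10, had 263 CPM in both 1-day runs, against 74.8 and 72.0 CPM in the control runs (log2 fold 1.84). Vim, the intermediate filament vimentin, averaged 825 CPM at 1 day and 413 CPM in control. Its log2 fold of 1.00 in the mean was 1.01 in run 1 and 0.98 in run 2, so it just missed the 2-fold rule. Vill, a villin-like actin-binding protein, had 11.1 and 12.2 CPM at 1 day, against 1.82 and 1.72 CPM in control (2.66). Capg, which caps actin filaments, was 1.78-fold higher. Of a list of 40 tested villin, gelsolin and actin-binding genes, 4 were higher and 1 lower by the 1.5-fold rule. That list also holds the intermediate filament gene Vim and the annexin gene Anxa2, and both are among the 4 higher. Over all genes tested, 4.29% were higher and 2.79% lower. The lower share is near that of all genes. Outside that list, Tppp, a tubulin polymerisation factor, averaged 10.6 CPM at 1 day and 1.79 CPM in control (2.50), and Eml1, a microtubule-associated protein, averaged 29.9 CPM and 9.79 CPM (1.60).

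**Figure D2:**
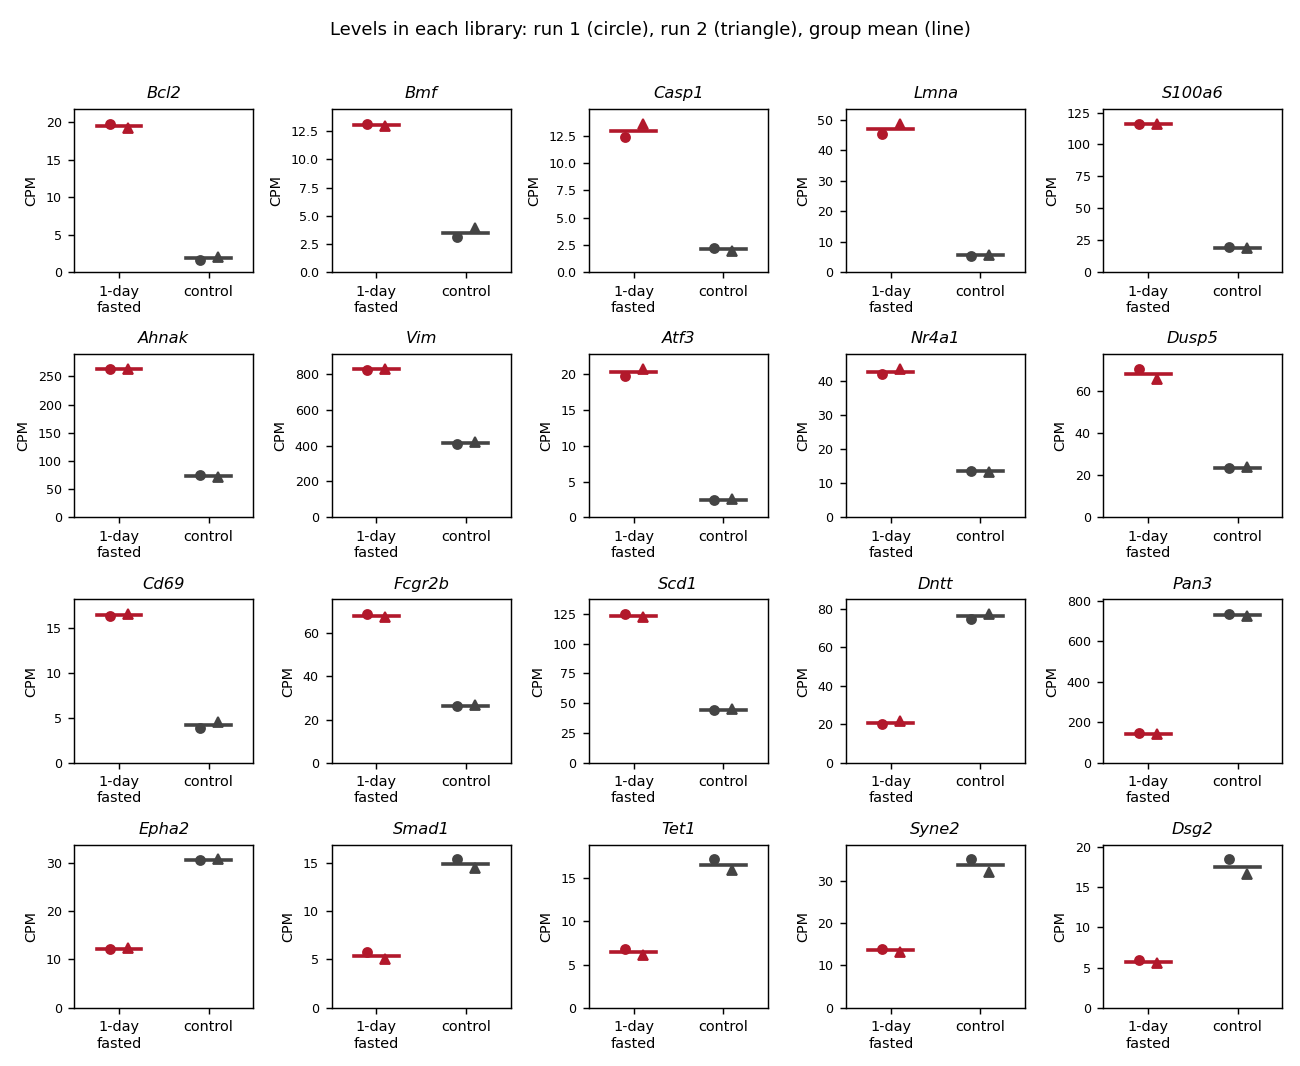
Levels of 20 genes (CPM of gene reads, y axes from 0, 1 panel a gene) in 1-day fasted (red, left) and control (grey, right) libraries. Circles are run 1, triangles run 2 and lines the group means. In every panel the runs lie close together and the groups do not overlap. The genes shown were picked among those that differ, so the gap adds no support. Of them, 13 are higher at 1 day and the last 7, from Dntt to Dsg2, are lower.

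Some early response genes were higher and none was lower by the 1.5-fold rule. Of 20 tested AP-1 and ATF genes, 7 were higher by at least 1.5-fold and 0 lower, with a median log2 fold of 0.33. Of 22 genes in a list of Nr4a, Egr, Ier and other early response genes, 7 were higher and 0 lower (median 0.40). That list is not confined to these families and also holds Zfp36. Among 13 Kruppel-like factor genes, 5 were higher and 0 lower. Over all genes tested, 4.29% were higher by this rule, 2.79% were lower and the median was 0.002. Atf3, a stress-induced repressor of the ATF family, had 19.8 and 20.7 CPM in the 1-day runs, against 2.43 and 2.50 CPM in the control runs (2.99). On exon reads its log2 fold was 4.14, since 69.6% of its gene reads were exonic at 1 day and 28.6% in control. Nr4a1, an orphan nuclear receptor induced by antigen receptor signals, had 42.1 and 43.5 CPM at 1 day, against 13.7 and 13.3 CPM in control (1.66, and 2.11 on exon reads). Fosb, an AP-1 subunit, had 342 and 341 CPM at 1 day, against 159 and 150 CPM in control (1.14). Fos averaged 171 CPM at 1 day and 89.5 CPM in control, a 1.91-fold difference. Egr1 (1.46), Klf6 (1.51) and Klf4 (1.40) passed 2-fold, and Junb, Jun and Klf2 passed 1.5-fold with folds of 1.59, 1.58 and 1.69. Dusp5, a nuclear phosphatase that switches off ERK, averaged 68.3 CPM at 1 day and 23.7 CPM in control (1.52), and it was the single gene past 1.5-fold of 13 in its family. Plk2, a polo-like kinase and early response gene that is also a p53 target, averaged 37.1 CPM and 9.06 CPM (2.02).

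The promoters of 4 of these genes are shown because short elements for stimulus-dependent factors can be read in them. Each runs from 250 bases before to 50 bases after the start of the gene, 5′ to 3′ on the coding strand, from RefSeq on GRCm38.p6. Capitals mark TGACG or its reverse complement CGTCA, the core bound by CREB and ATF proteins, and in Dusp5 also 2 adjoining CArG boxes, the element of serum response factor.
Atf3: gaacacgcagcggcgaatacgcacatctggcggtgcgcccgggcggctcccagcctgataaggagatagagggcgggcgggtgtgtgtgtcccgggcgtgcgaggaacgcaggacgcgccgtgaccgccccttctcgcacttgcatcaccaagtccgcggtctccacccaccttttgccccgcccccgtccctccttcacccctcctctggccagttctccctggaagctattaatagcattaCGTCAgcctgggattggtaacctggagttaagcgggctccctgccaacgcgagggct
Nr4a1: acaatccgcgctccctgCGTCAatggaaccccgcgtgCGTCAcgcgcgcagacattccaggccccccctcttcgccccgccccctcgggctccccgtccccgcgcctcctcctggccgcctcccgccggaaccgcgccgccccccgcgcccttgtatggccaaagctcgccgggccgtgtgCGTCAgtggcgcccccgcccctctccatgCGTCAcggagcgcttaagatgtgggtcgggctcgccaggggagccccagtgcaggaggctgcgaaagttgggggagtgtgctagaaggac
Fosb: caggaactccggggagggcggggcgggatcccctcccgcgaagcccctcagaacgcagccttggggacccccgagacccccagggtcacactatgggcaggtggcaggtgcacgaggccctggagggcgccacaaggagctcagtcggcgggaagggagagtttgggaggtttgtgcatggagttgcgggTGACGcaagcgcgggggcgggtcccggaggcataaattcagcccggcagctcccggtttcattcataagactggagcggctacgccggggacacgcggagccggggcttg
Dusp5: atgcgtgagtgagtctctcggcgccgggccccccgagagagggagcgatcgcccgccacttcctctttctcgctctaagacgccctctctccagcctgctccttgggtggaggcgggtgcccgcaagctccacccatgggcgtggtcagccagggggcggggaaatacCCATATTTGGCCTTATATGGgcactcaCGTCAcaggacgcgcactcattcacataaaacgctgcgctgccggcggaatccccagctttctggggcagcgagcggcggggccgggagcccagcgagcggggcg

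The Atf3 promoter is chr1:191183284-191183583 on the minus strand, Nr4a1 chr15:101266596-101266895 on the plus strand, Fosb chr7:19309996-19310295 on the minus strand and Dusp5 chr19:53528895-53529194 on the plus strand. Nr4a1 holds 4 such cores and the other three hold 1 each. The core was not more frequent among the genes that differed. It was found on either strand in 25.2% of the 143 higher genes with a promoter sequence, in 22.5% of the 71 lower ones, in 34.8% of the 9709 tested genes with one and in 23% of all 27025 promoters of that length. The full site TGACGTCA, which overlaps the core, was in 1.4% of higher, 2.82% of lower and 3.56% of tested promoters. The AP-1 motif TGANTCA was in 8.39%, 7.04% and 5.98%, and the CArG box in 3.5%, 2.82% and 1.45%. A match is a run of letters and not evidence of binding.

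Several genes of B-cell maturation were higher and some genes of the precursor stage were lower. Of 16 tested mature and follicular B-cell genes, 6 were higher and 0 lower by the 1.5-fold rule (median log2 fold 0.41), against 4.29% and 2.79% of all genes tested. Cxcr5, the receptor that guides B cells into follicles, had 9.46 and 8.46 CPM at 1 day, against 3.21 and 2.74 CPM in control (1.56). Cd55, a complement regulator, averaged 59.5 CPM at 1 day and 26.8 CPM in control (1.15). Ms4a1, the CD20 gene, averaged 64.5 CPM and 29.2 CPM (1.14), with the caution that it overlaps another gene model and counting by strand is not stated. Fcgr2b, the inhibitory Fc receptor of B cells, had 68.9 and 67.4 CPM at 1 day, against 26.3 and 26.6 CPM in control (1.36). It was the B-cell receptor signalling gene with the largest fold of 30 tested, among which 4 were higher and 1 lower. The others were the adaptor Lat2 (1.14), the Src-family kinase Blk (1.01) and the scaffold Bank1 (0.95), and the lower gene was the PI3-kinase adaptor Pik3ap1 (-0.73). Of 13 genes of antigen presentation on MHC class II, 4 were higher and 0 lower. Cd74, the invariant chain, had 819 and 815 CPM in 1-day runs, against 419 and 426 CPM in control runs, a 1.94-fold difference.

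Zbtb32, a zinc-finger repressor of the B lineage, had 19.0 and 20.7 CPM at 1 day, against 3.51 and 4.01 CPM in control (log2 fold 2.37). It stood apart from its list: of 28 B-lineage transcription factors, 26 did not pass the 1.5-fold rule, and the other higher one, Prdm1, averaged 0.389 CPM at 1 day and 0.206 CPM in control. Dntt, the template-free polymerase that adds bases at V(D)J joints, had 19.8 and 21.6 CPM at 1 day, against 74.8 and 77.0 CPM in control (-1.87). Among 19 early progenitor genes it was 1 of 5 lower, with 2 higher, against 2.79% lower and 4.29% higher among all genes tested. The higher ones were Flt3 (0.85), at 1.93 CPM at 1 day and 1.03 CPM in control, and Ly6d (0.76), at 37.4 CPM and 22.0 CPM. Kit, the stem cell factor receptor, averaged 0.734 CPM at 1 day and 2.30 CPM in control (-1.53), Arpp21 averaged 15.0 CPM and 28.7 CPM (-0.93), and the factor Erg averaged 25.2 CPM and 44.1 CPM (-0.80). The surrogate light chain genes Vpreb1 (-0.25) and Igll1 (-0.17) did not reach 1.5-fold. The other 18 of 19 V(D)J recombination genes did not pass the 1.5-fold rule.

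Genes of cell traffic and of receptors for outside signals followed. Of 20 tested genes in a list of chemokine and sphingosine-phosphate receptors, 8 were higher and 0 lower by the 1.5-fold rule (median log2 fold 0.36). Over all genes tested, 4.29% were higher and 2.79% lower. The list also holds Cd69, which is not such a receptor and is 1 of the 8. Cd69, an activation antigen that pulls S1pr1 off the cell surface, had 16.4 and 16.6 CPM at 1 day, against 3.86 and 4.56 CPM in control (1.94). S1pr1, the receptor that lets lymphocytes leave tissue, was higher as well, with 50.3 and 49.5 CPM at 1 day, against 24.0 and 24.5 CPM in control (1.04). P2ry10, a lysophospholipid receptor, averaged 9.86 CPM at 1 day and 3.18 CPM in control (1.60). Itgb7, a homing integrin, averaged 65.2 CPM and 26.2 CPM (1.31). Lifr, the receptor for leukaemia inhibitory factor, averaged 4.92 CPM at 1 day and 1.25 CPM in control (1.89), and of 36 cytokine receptor subunits 3 were higher and 0 lower. Socs3, a feedback inhibitor of cytokine signals, averaged 2.60 CPM at 1 day and 0.903 CPM in control (1.43). It was 1 of 2 higher genes among 27 of the leptin receptor, STAT and SOCS list, whose median was 0.00. The shares in the cytokine receptor and STAT lists are near that of all genes.

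Nutrient and hormone lists differed in how many members passed, against 4.29% higher and 2.79% lower among all genes tested. The 38 tested genes of fasting lipid use and ketone metabolism held 0 that passed the 1.5-fold rule in either direction (median -0.02, range -0.43 to 0.60), and the 20 aminoacyl-tRNA synthetases held 0. Of 36 genes of the ATF4 amino acid response, 10 were higher and 1 lower (median 0.29). Trib3, a pseudokinase induced by amino acid lack, averaged 2.30 CPM at 1 day and 0.897 CPM in control (1.27). Asns, the asparagine synthetase, was 1.66-fold higher, at 23.5 CPM at 1 day and 14.1 CPM in control. Of 41 mTORC1 genes, 2 were higher and 0 lower: its inhibitors Ddit4 (0.77) and Sesn2 (0.65), both also in the ATF4 list. Of 27 glucocorticoid receptor and target genes, 7 were higher and 1 lower, with a median of 0.01. The lower one was Nr3c2 (-1.15), on 10 reads at 1 day and 25 in control. It is the gene of the mineralocorticoid receptor and not of the glucocorticoid receptor. Tsc22d3, the glucocorticoid-induced leucine zipper, had 195 and 196 CPM at 1 day, against 93.5 and 95.1 CPM in control (1.05), Per1 was 1.86-fold higher, and Cdkn1c, a cell-cycle inhibitor, averaged 8.06 CPM at 1 day and 2.67 CPM in control (1.56). Other common targets did not follow: Fkbp5 averaged 91.9 CPM at 1 day and 98.3 CPM in control and Sgk1 35.3 CPM and 38.4 CPM. Irs2, an insulin receptor adaptor, was 1.93-fold higher and Igf1r 1.89-fold lower, among 32 insulin, IGF and FoxO genes with 3 higher and 2 lower. Scd1, which desaturates fatty acids, had 125 and 122 CPM at 1 day, against 44.1 and 44.7 CPM in control (1.47), while the desaturase Fads2 was 1.99-fold lower. The core clock activator Arntl was 1.71-fold lower, at 48.7 CPM at 1 day and 83.4 CPM in control. The hour of collection is not given in the labels, and its part in the result was not tested.

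**Figure D3:**
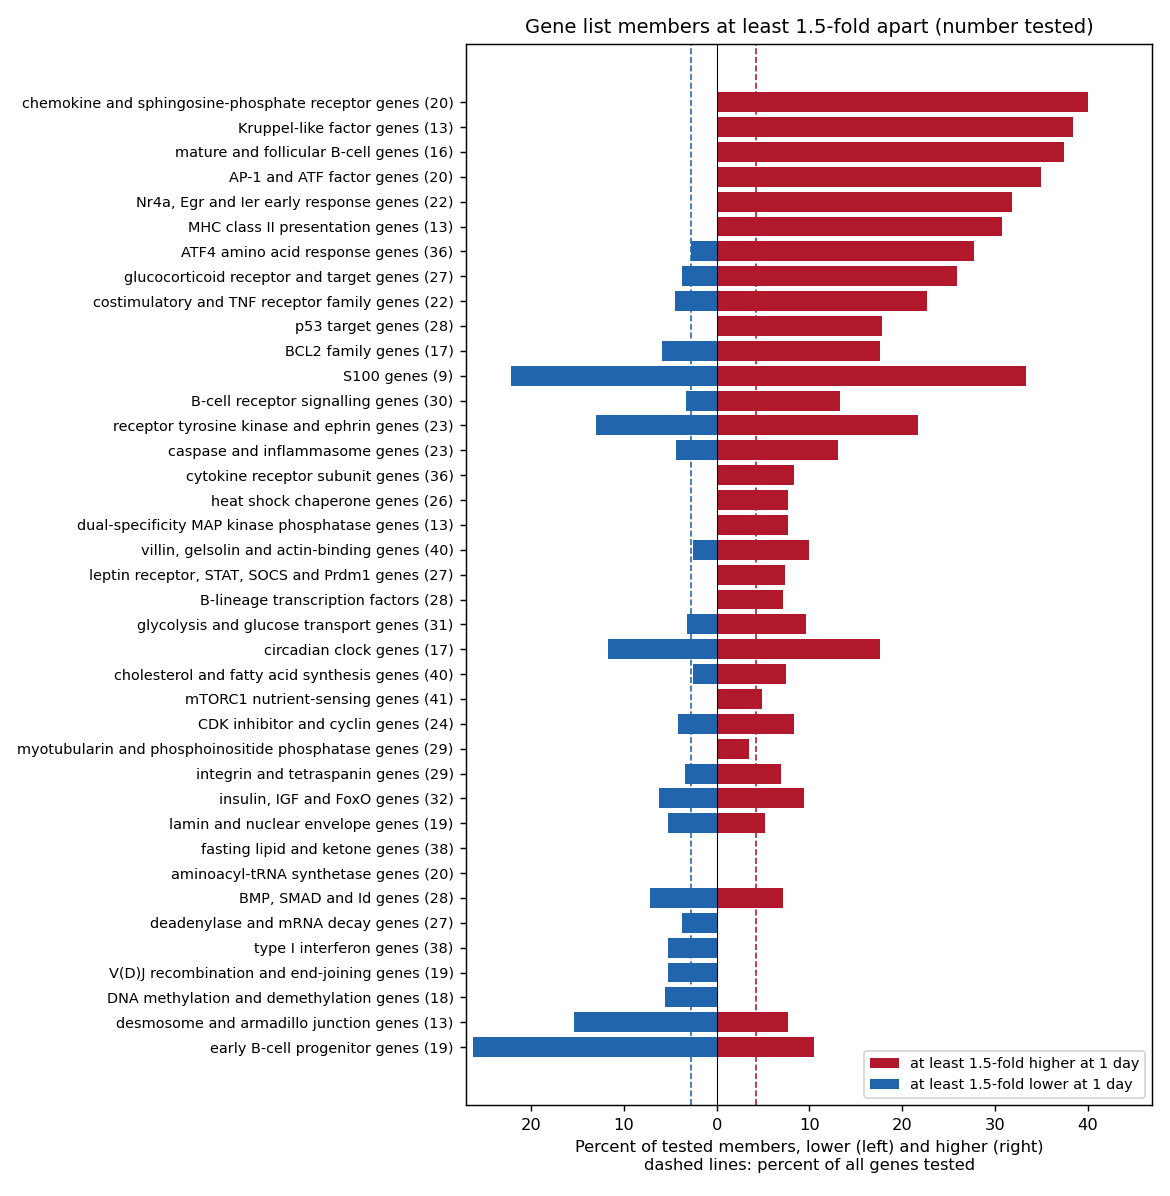
Percent of the tested members of 39 gene lists that were at least 1.5-fold higher (red, right) or lower (blue, left) in 1-day fasted cells than in control cells, with the number tested in brackets and dashed lines at 4.29% and 2.79%, the shares of all genes tested. Traffic receptor, Kruppel-like factor, mature B-cell and early response lists lie at the top, with higher members and no lower ones, and the progenitor list at the bottom has 5 lower and 2 higher of 19.

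Other large higher folds belong to genes of unrelated roles. Rab17, a small GTPase of endocytic transport in epithelia, was at 10.5 and 10.6 CPM in the 1-day runs, against 0 CPM in both control runs. That is 769 reads at 1 day against 0 in control, at least 228-fold higher with a floor of 3 reads over the control group. Its reads were 76.1% exonic and 99.6% unique. Dse, an enzyme of dermatan sulphate synthesis, had 11.9 and 10.7 CPM at 1 day, against 0.911 and 1.03 CPM in control (log2 fold 3.41). Cldn4, a tight-junction protein, averaged 4.71 CPM at 1 day and 0.766 CPM in control (2.48), and Nid1, a basement membrane protein, 10.6 CPM and 2.14 CPM (2.26). Fstl3, a secreted activin-binding protein, averaged 3.10 CPM at 1 day and 0.463 CPM in control (2.51). Tmeff1, a membrane protein with follistatin-like domains, averaged 8.01 CPM at 1 day and 1.18 CPM in control (2.66). Other members of the 25 with the largest exon-supported folds were the zinc-finger gene Zfp783 (2.97), the carboxypeptidase gene Cpn1 (2.27), the potassium channel modifier Kcns1 (2.08) and the receptor kinase gene Adrbk2 (2.00). Hspb1, a small heat shock protein, had a log2 fold of 2.74 on 182 reads at 1 day and 17 in control, of which 33.5% were unique at 1 day, and 2.04 on unique reads alone. Mid1 (2.20) and Erdr1 (2.07) lie at the shared end of the sex chromosomes and had 47.3% and 18% unique reads at 1 day, so their values are uncertain. Of 6 tested stromal and endothelial markers, 1 was higher, Sparc, at 1.73 CPM at 1 day and 0.42 CPM in control. The defining markers of that list stood at no more than 0.58 CPM at 1 day and 0.589 CPM in control, and none was at 0.

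Transcripts of natural killer cells also differed, at low levels. Of 25 tested T and NK cell genes, 10 were higher and 2 lower by the 1.5-fold rule, against 4.29% and 2.79% of all genes tested. Klrk1 averaged 1.30 CPM at 1 day and 0.131 CPM in control, Ncr1 0.895 CPM and 0.115 CPM, Klrb1c 1.14 CPM and 0.21 CPM, and Ccl5 1.24 CPM and 0.16 CPM. Klrk1, Ncr1 and Klrb1c encode NK cell receptors, and each rested on 64 to 89 reads at 1 day and 8 to 16 in control. The size of these folds leans on the control runs: without control run 1 the log2 fold of Klrk1 was 1.95, and without control run 2 it was 3.81, while that of Klrb1c was 2.73. The list summed to 124 and 121 CPM in the 1-day runs, against 108 and 102 CPM in the control runs, and its defining T cell markers did not exceed 0.784 CPM at 1 day and 0.731 CPM in control. Cd2, a lymphocyte adhesion antigen in the same list, averaged 35.9 CPM at 1 day and 15.4 CPM in control. This gap is larger than that between the sums, so the sums do not show a rise of the rest of the list. Cd247 averaged 29.1 CPM at 1 day and 37.6 CPM in control. Of the 25 genes, 13 passed in neither direction. The NK cell genes Nkg7, at 1.16 CPM and 0.89 CPM, and Eomes, at 0.709 CPM and 0.706 CPM, did not pass. Mast cell and basophil genes had 5 higher and 1 lower of 9. The part of these cells in the other results was not tested.

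Lower genes were fewer, and 3 of them averaged 50 CPM or more in control, with Pan3 the highest. Pan3, a subunit of the deadenylase that shortens poly(A) tails, had 146 and 141 CPM in the 1-day runs, against 734 and 724 CPM in the control runs (log2 fold -2.35, and -2.18 on exon reads). It was the single gene past 1.5-fold among 27 deadenylase and mRNA decay genes. Rps6ka6, a ribosomal S6 kinase of the RSK family, had 0.07 and 0.09 CPM at 1 day, against 7.07 and 7.20 CPM in control. That is 6 reads at 1 day against 465 in control (-5.33). Psma8, a proteasome subunit of germ cells, had 1 read at 1 day and 138 in control, a control over 1-day ratio of 155 with a 95% counting interval of 27.4 to 6170. Bahcc1, a chromatin reader, averaged 0.465 CPM at 1 day and 4.06 CPM in control (-2.88). In all 4 of these genes the groups differed by at least 5-fold in both runs.

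Epha2, an ephrin receptor tyrosine kinase, had 12.2 and 12.3 CPM at 1 day, against 30.6 CPM in both control runs (-1.32). Its list of 23 receptor tyrosine kinase and ephrin genes held 5 higher and 3 lower by the 1.5-fold rule (median 0.34), against 4.29% and 2.79% of all genes tested. Among the higher ones were Ephb4 (1.13), under 1 CPM, Flt3 (0.85) and Ryk (0.69). Gfra1, a GDNF co-receptor, had 25.8 and 23.9 CPM at 1 day, against 58.0 and 57.3 CPM in control (-1.21). Tgfa, a ligand of the EGF receptor, averaged 0.802 CPM at 1 day and 2.35 CPM in control (-1.44), and Unc5a, a netrin receptor, 3.19 CPM and 8.35 CPM (-1.36). Smad1, a transducer of BMP signals, had 5.71 and 4.99 CPM at 1 day, against 15.3 and 14.4 CPM in control (-1.46), and of 28 BMP, SMAD and Id genes 2 were higher and 2 lower. Tet1, which oxidises methylcytosine, had 6.80 and 6.12 CPM at 1 day, against 17.2 and 15.9 CPM in control (-1.34), and it alone of 18 DNA methylation genes passed 1.5-fold. Of 13 desmosome and armadillo junction genes, 2 were lower and 1 was higher. Dsg2, a desmosomal cadherin, had 5.96 and 5.53 CPM at 1 day, against 18.4 and 16.6 CPM in control (-1.59), and Pkp4, an armadillo protein of junctions, averaged 10.7 CPM and 25.2 CPM (-1.23). The higher member, the plakoglobin gene Jup, averaged 8.02 CPM at 1 day and 4.14 CPM in control (0.94). Fnbp1l, a membrane-bending F-BAR protein, averaged 1.69 CPM at 1 day and 6.67 CPM in control (-1.92), and its adjacent tested neighbour Pde5a, a cyclic GMP phosphodiesterase, was lower as well (-1.20). The auxilin gene Dnajc6 (-1.22), the lipid-binding gene Plekha8 (-1.47), the sulphotransferase gene Chst11 (-1.28) and the milk protein gene Lalba (-1.43) were lower too, with Lalba at 1.65 CPM at 1 day and 4.61 CPM in control. The rest of the 25 lower genes with the largest exon-supported folds were the potassium channel gene Kcnf1 (-1.67), the acute-phase protein gene Orm1 (-1.55), Sh3d19 (-1.51), Cass4 (-1.31) and Cand2 (-1.26).

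Whether a difference lay in mature transcript or in intron reads was read from the exon counts. On exon reads alone 207 genes (1.45%) were higher and 107 (0.752%) lower. Of the 213 higher genes, 185 were also 2-fold higher on exon reads and 15 had an exon fold under 1.5, and of the 111 lower genes 89 were also 2-fold lower on exon reads and 11 had an exon fold under 1.5. Mtmr7, a phosphoinositide phosphatase gene, had 82.5 and 79.8 CPM of gene reads at 1 day, against 2.26 and 1.77 CPM in control, and an exon-read log2 fold of 0.02. Lmo2, a haematopoietic adaptor of transcription complexes, had 263 CPM in both 1-day runs, against 77.0 and 78.9 CPM in control runs (1.75), and 0.10 on exon reads. Exonic reads were 27.7% of its gene reads at 1 day and 87.7% in control. Uniquely mapped reads were 56.3% of them at 1 day and 4.13% in control, and its unique-read log2 fold was 5.46. The gene model 4931422A03Rik, which overlaps Lmo2, had a log2 fold of -2.82 on gene reads, 0.47 on exon reads and 0.70 on unique reads, so its direction depends on the class of reads. Tex21 (2.23) and Clec2g (1.12) among higher genes and Gnat3 (-1.17) and Rora (-2.04) among lower ones were also carried by intron reads. Their exon-read log2 folds were 0, 0.40, -0.29 and -0.29. Tex21 had no exon reads in either group, so its exon fold of 0 comes from the added 0.1 CPM alone. Only 11.4% of its reads were unique at 1 day. For Clec2g, 0.69% of reads were exonic and 42.2% unique at 1 day, so its exon fold rests on few reads. Gnat3 had 2 unique exon reads at 1 day and 3 in control, and Rora had 6 and 7. Their exon folds therefore lean on the added 0.1 CPM as well and do not show that their exon reads were level. Because counting by strand is not stated, intron reads and transcripts of an overlapping or antisense gene cannot be told apart.

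**Figure D4:**
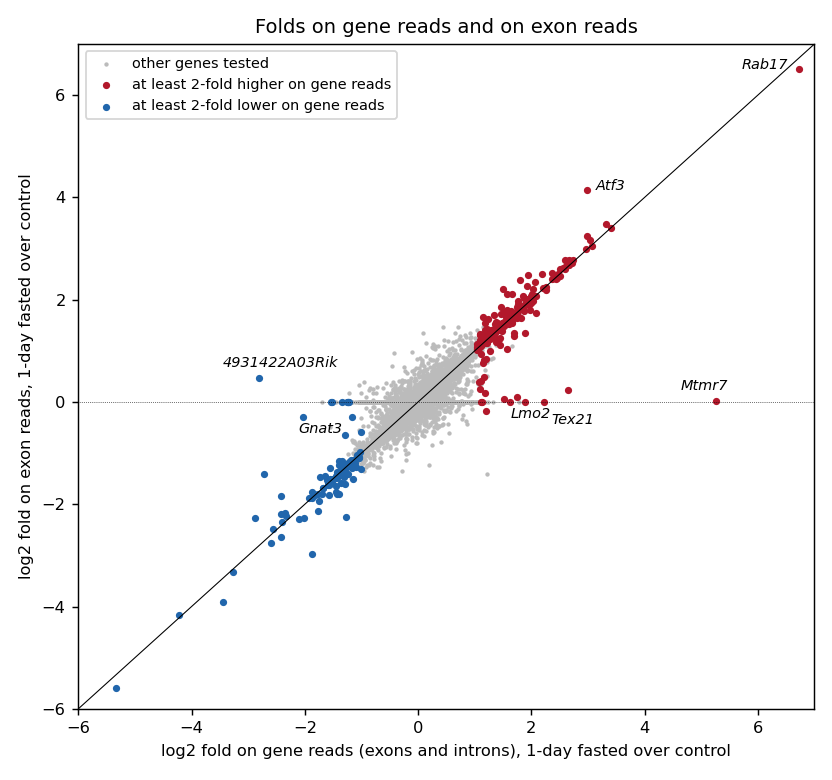
Log2 fold on exon reads (y axis) against log2 fold on gene reads, exons and introns together (x axis), 1-day fasted over control, for all genes tested. Red and blue points are genes at least 2-fold higher or lower on gene reads, and the line marks equal folds. Most called genes lie near the line, Atf3 lies above it, and Mtmr7, Lmo2, Tex21 and Gnat3 lie near an exon fold of 0. Tex21 lies there by construction, as it had no exon reads in either group, and Gnat3 had few.

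Some called genes were neighbours. Among tested genes in genome order there were 34 adjacent pairs in which both genes passed 2-fold, 27 of them in the same direction and 5 of them overlapping. In 10 pairs the genes differed in the same direction, lay within 10000 bases and did not overlap. They included S100a4 with S100a6, Tmeff1 (2.66) with Murc (2.09), Eno2 (2.61) with Lrrc23 (1.76), and B4galnt1 (1.40) with Slc26a10 (1.60). Eno2, a glycolytic enolase, rested on 95 reads at 1 day and 10 in control, and its log2 fold was 3.28 without control run 2 and 1.52 on the authors' RPKM. For Tmeff1 and Murc the gap is 382 bases and for Eno2 and Lrrc23 it is 189 bases, so reads running past the end of 1 gene could be counted in the next, which was not tested. Myo18b (1.76) and Adrbk2 (2.00) lie 14.1 kb apart on chromosome 5.

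The cells fasted for 2 days give a second reference for the 1-day level. Each comparison uses the same 1-day libraries, so they are not independent. Against the 2-day cells, 675 genes (4.74%) were at least 2-fold higher in 1-day cells and 278 (1.95%) at least 2-fold lower. Of the 14236 genes, 38 (0.267%) were at least 2-fold higher at 1 day than in control and also than at 2 days, and 14 (0.0983%) were lower than both. Control, 1-day and 2-day cells had 0, 10.5 and 0 CPM of Rab17, the trafficking GTPase. For Cldn4 the levels in the same order were 0.766, 4.71 and 0 CPM, and for Esx1, a homeobox gene, 1.01, 2.85 and 0 CPM. For Bcl2 they were 1.86, 19.5 and 5.53 CPM, for Lmna 5.53, 47.1 and 22.2 CPM, and for Casp1 2.12, 12.99 and 3.68 CPM. These 3 genes were above control at both times and highest at 1 day. Fosb had 155, 342 and 52.2 CPM in that order, Klf4 had 6.07, 16.2 and 2.99 CPM, and Cd69 had 4.21, 16.5 and 2.51 CPM. These were below control at 2 days. Other named genes continued in 1 direction over the series. S100a6 had 19.1, 116 and 234 CPM and Nr4a1 had 13.5, 42.8 and 154 CPM. Dntt had 75.9, 20.7 and 0.201 CPM and Epha2 had 30.6, 12.2 and 0.976 CPM.

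**Figure D5:**
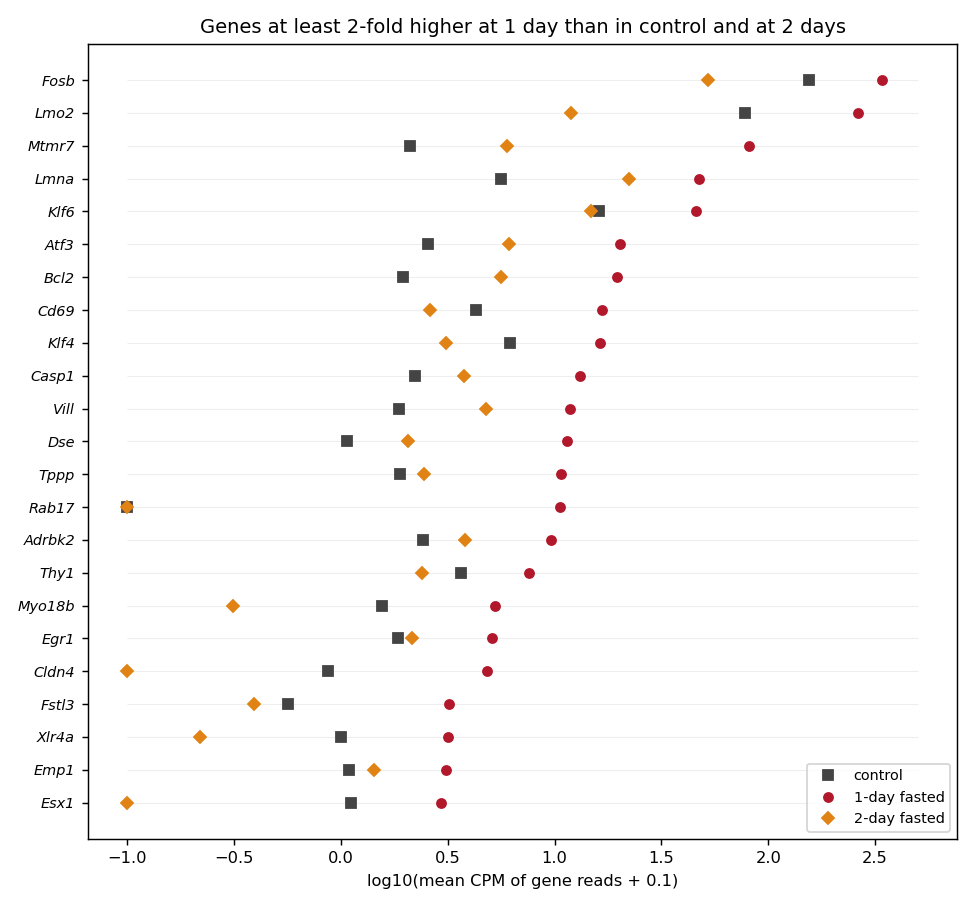
Mean levels, as log10 of CPM of gene reads plus 0.1 (x axis), in control (grey squares), 1-day fasted (red circles) and 2-day fasted (orange diamonds) cells for the genes at least 2-fold higher at 1 day than in both other groups, with at least 2 CPM at 1 day and without provisional gene models. The red circle is the rightmost in each row by construction, and for Rab17 the control and 2-day points lie together at 0 CPM.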

How the data were processed

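RNA was reverse-transcribed and sequenced as 51-bp single-end reads, per the labels' protocols, and, per the submitters' processing notes, aligned to mm10 with TopHat2. How reads were assigned to genes, with which annotation and whether by strand is not given in the sources used. The deposited files hold read counts per gene (total, unique, exon and intron) and the authors' RPKM values, which were used as an alternative only. Run 1 lists 38355 genes per library and run 2 lists 38924. They were joined by position (37429 genes) or name (303), which kept 96.7% to 99.96% of gene reads. Total gene reads were scaled to CPM with TMM factors from all libraries (edgeR 4.0.16, R 4.3.3) and filtered by filterByExpr with a minimum count of 10. Calls ask for 2-fold (1.5-fold in lists) in the mean and in each like-numbered run, with 0.1 CPM added. This was tested on simulated data. Intervals cover counting error only. Alternatives were DESeq2 1.42.0 size factors, other filters, pseudocounts, read classes, fold limits and left-out libraries. Named genes are the 25 per direction with the largest folds held on exon reads, at 2 CPM or more, genes carried by intron reads, and a choice of up to 4 members per list. Genes named outside this rule were chosen after their values were seen. The members, lists and rules were chosen with earlier results of these data known.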

Additional observations from a re-analysis of the deposited data

Results flagged for a closer look

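A signal appeared in data that the comparison did not use. AC120404.1, a gene listed in the run 2 tables and not joined to the run 1 tables, stood at 2.29 CPM (102 reads) in 1-day fasted cells and at 0.215 CPM (9 reads) in control cells in run 2. It spans 68736297 to 68736764 on chromosome 6 of mm10, where it contains the immunoglobulin segment Igkv19-93, which both runs list. Igkv19-93 stood at 2.07 CPM at 1 day and 0.347 CPM in control in run 1, and at 0.202 CPM at 1 day and 0.239 CPM in control in run 2. Which of the overlapping entries a read was counted under cannot be told from the files. No group has the 4 samples that a check for single samples far from the others needs.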

How the results depend on the processing

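The counts of higher and lower genes stayed within 1.5 times of 213 and 111 under DESeq2 size factors, TMM factors from the 4 compared libraries, no filter on low counts, exon reads, unique reads, the authors' RPKM, and a rule, chosen after seeing the data, that asks for 2-fold in all 4 pairs of libraries (178 and 86). They moved to 89 and 26 with at least 5 CPM in 1 group, to 85 and 24 with 1 CPM added, to 611 and 397 at 1.5-fold and to 61 and 27 at 3-fold, each of which admits fewer or more genes by construction. Leaving out 1 library gave 272 to 412 higher and 160 to 258 lower genes. The replicate block, a mean of the like-numbered log2 folds, gave 213 and 111 and changed neither count. No paired analysis was possible beyond this because the result comes from no test. Of 2000 recomputed log2 folds of named genes, 62 moved by over 1.5-fold, and 4931422A03Rik reversed, at 0.466 on exon reads and 0.7 on unique reads. Of 673 recomputed list medians, 1 moved by over 1.5-fold, a wide limit for medians that ran from -0.345 to 0.78. By a narrower limit, the SD of the medians of the 2 runs, 191 moved. The sign changed for 6 of 49 list medians with at least 5 CPM in 1 group and for 4 of 52 without control run 1. On the authors' RPKM, Rora had a log2 fold of -0.715 and Nr3c2 of -0.407. Depth limits genes under 1 CPM most: the runs of a group were 2-fold apart for 385 genes in 1-day cells and 486 in control cells, of which 153 and 193 had 1 CPM or more.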

Other observations

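Mitochondrially encoded genes are listed in the run 2 tables and not in those of run 1. They took 2.46% of gene reads in 1-day cells and 3.08% in control cells of run 2. Of 20 such genes at 1 CPM or more, 16 had a lower value at 1 day, with a median log2 fold of -0.605 and a range of -1.15 to 0.171.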
